A study of Caenorhabditis elegans with 6 samples.

Results

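Genes of spermatogenesis outside the major sperm protein (msp) family were read in sorted touch receptor neurons of *Caenorhabditis elegans*. The 9 genes are the sperm-fate genes *fog-1* and *fog-3*, the spermatocyte transcription factor gene *spe-44*, the sperm phosphatase genes *gsp-3* and *gsp-4*, and the sperm function genes *spe-9*, *spe-11*, *spe-38* and *spe-42*. Each of the 9 symbols was matched to a single identifier among the 46726 genes of the count files, and all 9 passed the low-count filter that left 14614 genes for testing. Of the 6 RNA-seq libraries, 3 came from *mec-8(e398)* mutants (referred to as *mec-8*) and 3 from animals whose strain is given as N2 (wild type). All came from larval animals at the L4 stage. Cells were sorted for GFP driven by the *mec-4* promoter from an integrated transgene (zdIs5 in the wild type, Is[*mec-4p::GFP*] in the mutant). Each library is a pool of cells from many dissociated animals.

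The *C. elegans* hermaphrodite germ line makes sperm during the L4 stage and then switches to oocytes, so an L4 animal holds spermatocytes and sperm that have no lineage relation to touch neurons. The choice of the sperm fate is made at the end of the germline sex determination pathway, where FOG-1, a CPEB-type RNA-binding protein, and FOG-3, a Tob family protein, act together. SPE-44, a SAND-domain transcription factor, then turns on genes in spermatocytes, and the products of these genes serve meiosis, the crawling of sperm, fertilization and the first steps of the embryo.

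The libraries held 33094142, 30230943 and 22705762 reads counted on genes in *mec-8* replicates 1 to 3, and 23160250, 27882591 and 15334872 in wild-type replicates 1 to 3. Levels are given as CPM, the reads on a gene per 1000000 reads counted on all genes of the library. Values of a genotype are listed in the order of replicates 1, 2 and 3. A gene with 3 reads, the floor used for bounds, would have 0.0907 to 0.196 CPM depending on the library. At least 1 read was counted on 13747 genes in wild-type replicate 1 and on 13613 in *mec-8* replicate 3. The other libraries had 16940 to 19659 such genes. Bounds from the floor do not cover transcripts lost before sequencing, which were not measured. Wild-type replicate 1 stood apart, with 70024247 alignments set aside for mapping to several places, against 1922629 to 11988379 in the other libraries. Within a genotype, libraries differed by a biological coefficient of variation of 1.20 (square root of the common dispersion in edgeR). The *mec-8* gene itself had 23.4, 6.48 and 2.60 CPM in *mec-8* libraries and 35.3, 8.64 and 9.33 CPM in wild-type libraries, ranges that overlap. Gene counts do not read the *e398* lesion, so the gene is no check of the labels. All 10 touch neuron marker genes had at least 10 reads in each library, and together they took 1.15%, 0.103% and 0.146% of the reads in the *mec-8* libraries, and 1.47%, 0.162% and 0.483% in the wild-type libraries.

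Reads on the 9 sperm genes were found in all 6 libraries, and their amount varied widely within each genotype. The highest library was *mec-8* replicate 1 for 5 of the genes, *mec-8* replicate 2 for 2 and wild-type replicate 3 for 2. The genes summed to 3019, 473 and 352 CPM in the *mec-8* libraries, against 104, 65.7 and 1027 CPM in the wild-type libraries. The highest *mec-8* library thus held 8.58 times the lowest, and the highest wild-type library 15.6 times the lowest. Counting error was small beside this spread, since the 95% Wilson interval of the summed share ran from 0.300% to 0.304% of the reads in *mec-8* replicate 1 and from 0.00628% to 0.00688% in wild-type replicate 2 (such intervals cover counting error only). The log2 summed level averaged 9.64 ± 1.68 in *mec-8* and 7.58 ± 2.12 in wild type (SD, n = 3 each), a difference of 2.05 that could not be told from the spread between replicates (p = 0.3 in a two-sided exact permutation test, whose smallest possible p with 3 libraries a group is 0.1). Without *mec-8* replicate 1 the difference was 1.09, without wild-type replicates 1 or 2 it was 1.61 or 1.28, and without wild-type replicate 3 it was 3.27. In bulk samples such as these, fewer spermatogenic cells and less RNA of a gene per cell cannot be told apart.

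**Figure D1:**
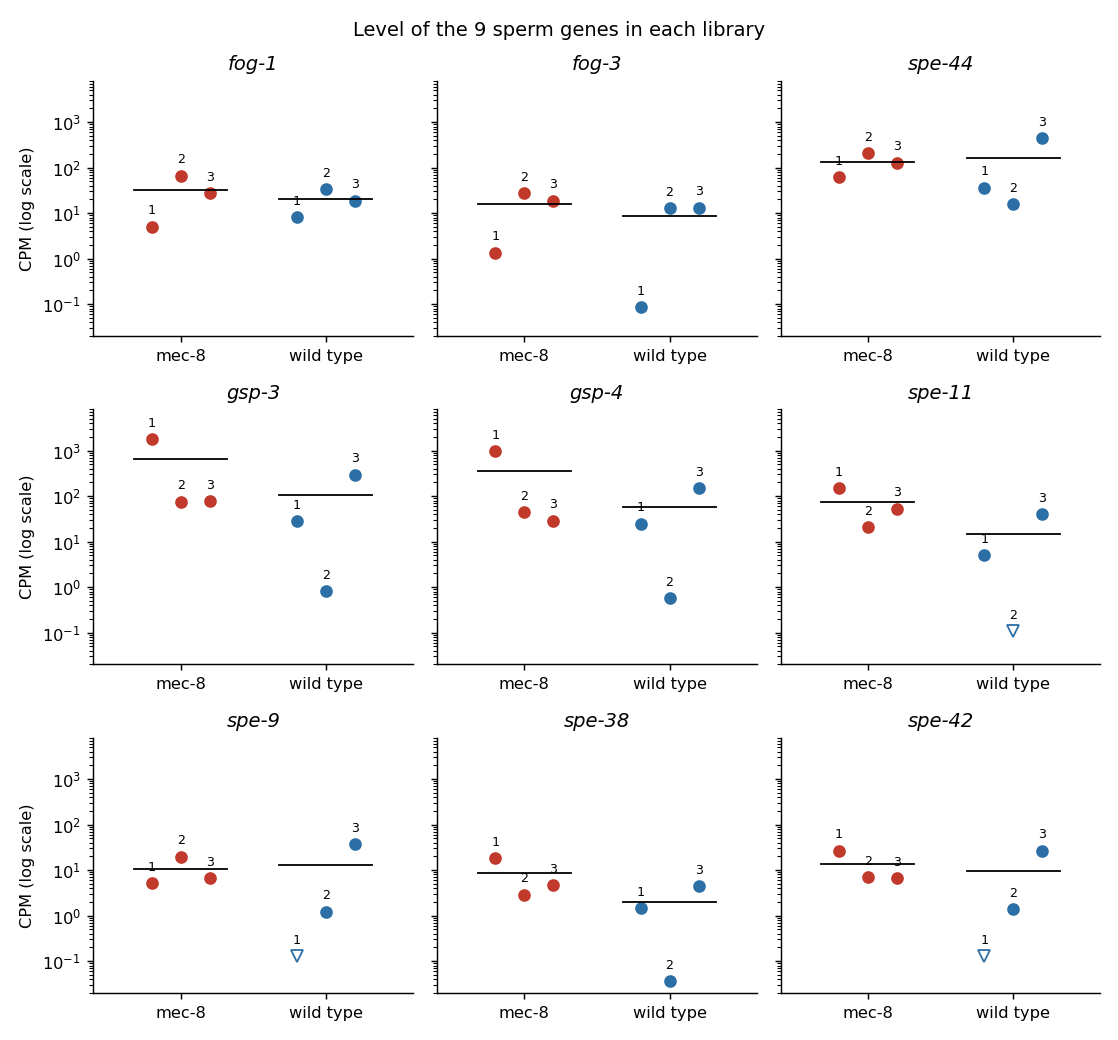
Level of each of the 9 genes in CPM (log axis) in the 3 *mec-8* and the 3 wild-type libraries. Filled points are libraries labelled with their replicate number, open triangles mark libraries with 0 reads at the level of 3 reads, and lines are means, and the panels show that *gsp-3* and *gsp-4* are highest in *mec-8* replicate 1 (1782 and 972 CPM) while *fog-1* is lowest there (5.05 CPM).

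The sperm-fate genes came first in the order of the pathway. *fog-1* (WBGene00001481, WBcel235 chromosome I, 3211046 to 3217267, plus strand, 2118 bases of exon) had 5.05, 66.7 and 27.04 CPM in the *mec-8* libraries, against 8.16, 33.1 and 18.8 CPM in the wild-type libraries. In each genotype, replicate 2 was the highest and replicate 1 the lowest, and the genotypes overlapped. Means were 32.9 ± 31.2 CPM in *mec-8* and 20.05 ± 12.5 CPM in wild type (SD, n = 3 each), and the fitted log2 ratio of *mec-8* over wild type was 0.57 with a standard error of 0.960 (edgeR quasi-likelihood test, adjusted p = 1.0). Without *mec-8* replicate 2 the sign turned, to -0.26. *fog-1* was the steadiest of the 9 genes, with a 13.2-fold range over the 6 libraries.

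*fog-3* (WBGene00001483, chromosome I, 10016765 to 10018121, plus strand, 998 bases of exon) had 1.36, 27.4 and 18.8 CPM in the *mec-8* libraries, against 0.0864, 12.8 and 13.2 CPM in the wild-type libraries. The lowest of these values is 2 reads, in wild-type replicate 1. Both replicate 1 libraries were low and the other 4 libraries lay close together, between 12.8 and 27.4 CPM. Its fitted log2 ratio was 0.67 with a standard error of 1.601 (edgeR quasi-likelihood test, adjusted p = 1.0). The 2 fate genes did not keep a constant ratio. *fog-1* made up 78.8%, 70.9% and 58.9% of the reads on the pair in the *mec-8* libraries, against 99.0%, 72.1% and 58.9% in the wild-type libraries. The value of 99.0% rests on 191 reads (95% Wilson interval 96.3% to 99.7%).

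*spe-44* (WBGene00007732, chromosome IV, 12452063 to 12454215, minus strand, 1631 bases of exon), which encodes the spermatocyte transcription factor, had 60.9, 209.6 and 129 CPM in the *mec-8* libraries, against 36.6, 15.7 and 439 CPM in the wild-type libraries. It was highest in a wild-type library, lay within the wild-type range in all 3 *mec-8* libraries, and was the only gene of the 9 besides *fog-1* with more than 100 reads in every library. The fitted log2 ratio was -0.68 with a standard error of 1.32 (edgeR quasi-likelihood test, adjusted p = 1.0). Wild-type replicate 3 held 89.4% of the *spe-44* CPM summed over the wild-type libraries, and without that library the log2 ratio was 2.36, of the opposite sign (edgeR quasi-likelihood test, adjusted p = 0.509).

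The phosphatase genes *gsp-3* and *gsp-4* encode close paralogs of the PP1 catalytic subunit that are made in the male germ line and serve sperm meiosis and motility. *gsp-3* (WBGene00021113, chromosome I, 4709259 to 4710712, minus strand, 1115 bases of exon) had 1782, 75.0 and 77.2 CPM in the *mec-8* libraries, against 27.8, 0.825 and 297 CPM in the wild-type libraries. *gsp-4* (WBGene00020187, chromosome I, 3838237 to 3839673, minus strand, 1158 bases of exon) had 972, 44.4 and 28.8 CPM in the *mec-8* libraries, against 24.9, 0.574 and 150.3 CPM in the wild-type libraries. A single library was far above the rest in each genotype, *mec-8* replicate 1 and wild-type replicate 3, and wild-type replicate 2 was far below, with 23 reads of *gsp-3* and 16 of *gsp-4*. The range over the 6 libraries was 2160-fold for *gsp-3* and 1694-fold for *gsp-4*. Among genes with at least 1 read, *gsp-3* stood at percentile 99.5 in *mec-8* replicate 1 and at percentile 31.0 in wild-type replicate 2.

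For neither phosphatase gene did the level pass the test between the genotypes. The fitted log2 ratio was 2.49 ± 2.13 for *gsp-3* and 2.52 ± 2.07 for *gsp-4* (± standard error), with an adjusted p of 1.0 for both in the quasi-likelihood test of edgeR. *mec-8* replicate 1 held 92.1% of the *gsp-3* CPM of its genotype and 93.0% of the *gsp-4* CPM, and without it the log2 fold changes were -0.90 and -1.12. Without wild-type replicate 3 they were 5.99 and 5.28. Reads of close paralogs can map to both copies and be set aside in counting, so the split between the pair is uncertain. As counted, *gsp-3* made up 64.7%, 62.8% and 72.8% of the reads on the pair in the *mec-8* libraries, against 52.8%, 59.0% and 66.4% in the wild-type libraries. *gsp-3* was therefore the more abundant of the pair in each of the 6 libraries, although in wild-type replicates 1 and 2 the 95% Wilson intervals began at 49.98% and 43.4%. The broadly expressed PP1 genes *gsp-1* and *gsp-2* did not follow this pattern. *gsp-1* had 102, 82.4 and 24.5 CPM in the *mec-8* libraries, against 85.1, 107.7 and 66.6 CPM in the wild-type libraries. *gsp-2* had 31.8, 42.8 and 43.3 CPM in the *mec-8* libraries, against 16.1, 38.98 and 27.5 CPM in the wild-type libraries.

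*spe-11* (WBGene00004965, chromosome I, 5330578 to 5332169, minus strand, 977 bases of exon) encodes a protein that sperm bring to the egg and that the embryo needs to complete meiosis and form its eggshell. It had 147, 21.1 and 53.0 CPM in the *mec-8* libraries, against 5.09, 0.0 and 40.0 CPM in the wild-type libraries. No read was counted in wild-type replicate 2, which allows a level of up to 0.108 CPM, so *mec-8* replicate 1 was at least 1371-fold higher than that library. *mec-8* replicate 2 lay below wild-type replicate 3, so the genotypes overlapped, and the fitted log2 ratio was 2.18 with a standard error of 2.03 (edgeR quasi-likelihood test, adjusted p = 1.0). It was 1.03 without *mec-8* replicate 1 and 5.26 without wild-type replicate 3.

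The 3 remaining genes encode membrane proteins of the sperm that are needed for fertilization. *spe-9* (WBGene00004963, chromosome I, 11582743 to 11586069, minus strand, 2024 bases of exon), which encodes a surface protein with EGF repeats, had 5.11, 19.6 and 6.61 CPM in the *mec-8* libraries, against 0.0, 1.22 and 37.1 CPM in the wild-type libraries. *spe-42* (WBGene00007117, chromosome V, 11733540 to 11736996, minus strand, 2546 bases of exon), which encodes a protein with a DC-STAMP domain, had 26.9, 6.88 and 6.61 CPM in the *mec-8* libraries, against 0.0, 1.36 and 26.9 CPM in the wild-type libraries. Both genes had 0 reads in wild-type replicate 1, which allows up to 0.130 CPM, and both were highest among the wild-type libraries in replicate 3. In wild-type replicate 1, *gsp-3* and *gsp-4* had 645 and 577 reads beside these zeros. For *spe-42* the highest *mec-8* and the highest wild-type library were level at 26.9 CPM.

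*spe-38* (WBGene00013121, chromosome I, 10964472 to 10966382, minus strand, 655 bases of exon), which encodes a tetraspan membrane protein, had 18.3, 2.88 and 4.62 CPM in the *mec-8* libraries, against 1.47, 0.0359 and 4.50 CPM in the wild-type libraries. The lowest value is a single read. Log2 fold changes were -0.76 for *spe-9* (standard error 2.02), 2.05 for *spe-38* (standard error 1.70) and 0.35 for *spe-42* (standard error 2.01), each with an adjusted p of 1.0 in edgeR's quasi-likelihood test. Without wild-type replicate 3 the value for *spe-9* was 4.04 and that for *spe-42* was 4.65, and without *mec-8* replicate 1 that for *spe-42* was -0.89 and that for *spe-38* was 0.62. Leaving out wild-type replicate 1 or 2 also turned the sign of *spe-42*, to -0.26 or -0.22. The annotation has 6 genes overlapping *spe-9*, some on the other strand, and 1 gene, *impt-1*, overlapping *spe-38* on the same strand. The strand setting of the counting is not given in the sources used here, so reads at these places may be shared or set aside. The other 7 genes overlap no annotated gene.

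**Figure D2:**
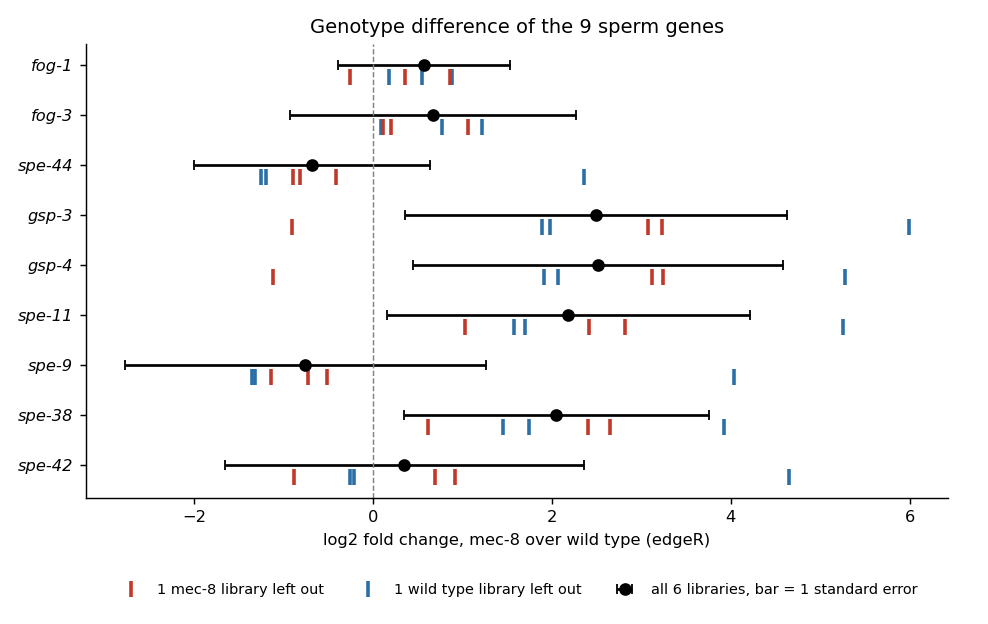
Log2 fold change of *mec-8* over wild type for each gene by edgeR, with black points from all 6 libraries, bars of 1 standard error, and ticks for the value with a single *mec-8* (red) or wild-type (blue) library left out. Values without wild-type replicate 3 lie furthest to the right for all genes but *fog-1*, and those for *gsp-3* and *gsp-4* without *mec-8* replicate 1 fall below 0 (-0.90 and -1.12).

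Over the 9 genes, 7 log2 fold changes were above 0 and 2 below, with a median of 0.67, against a median of 0.01 and 50.5% above 0 over all 14614 genes tested. None of the 9 had an adjusted p under 0.05 in edgeR's quasi-likelihood test, where 0.0% of all genes did, and 0 of the 9 had an unadjusted p under 0.05, against 3.22% of all genes (470 genes, 2.87% higher and 0.349% lower in *mec-8*). DESeq2 gave an adjusted p for only 5 of the 9, leaving it empty for *gsp-3*, *gsp-4*, *spe-9* and *spe-44*, and 0 of those 5 were under 0.05, against 0.377% of the 13517 genes with a value. For 0 of the 9 genes did the 3 *mec-8* libraries lie all above or all below the 3 wild-type libraries, a split found in 6.99% of all genes (5.5% above and 1.49% below). A log2 fold change above 2 was reached by 4 of the 9, against 12.6% of all genes. Single libraries moved these counts. Without *mec-8* replicate 1, 4 of the 9 were above 0 and 0 above 2, with a median of -0.41, against 38% and 6.61% of all genes. Without wild-type replicate 3, 9 of the 9 were above 0 and 7 above 2, with a median of 4.04, against 50.1% and 20.3% of all genes. The count above 2 was 1 without wild-type replicate 1 and 0 without wild-type replicate 2, and the median was 0.18 without wild-type replicate 1. Taken alone, a gene's CPM gave two-sided p-values between 0.2 and 1.0 in the exact permutation test.

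Per kilobase of exon, which allows genes to be compared with each other, *gsp-3* was the highest at a mean of 338 CPM per kilobase over the 6 libraries, followed by *gsp-4* at 176, *spe-44* at 91.1 and *spe-11* at 45.5. *fog-1* at 12.5, *fog-3* at 12.3, *spe-38* at 8.10, *spe-9* at 5.74 and *spe-42* at 4.49 CPM per kilobase followed. The difference between any neighbours in this order was smaller than the SD of the higher of them over the 6 libraries. The order of the means also hides the single libraries. *gsp-3* was above *gsp-4* in 6 of 6 libraries, but *gsp-4* was above *spe-44* in 1 of 6, *mec-8* replicate 1. In the other 5 libraries *spe-44* was above *gsp-4*, and in *mec-8* replicate 1 *gsp-3* was 42.8 times *spe-44* per kilobase, against 0.0766 times in wild-type replicate 2 and between 0.524 and 1.11 times in the remaining 4 libraries.

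The make-up of the sperm gene reads also differed between libraries. *gsp-3* and *gsp-4* together took 91.2%, 25.2% and 30.1% of the reads on the 9 genes in the *mec-8* libraries, against 50.7%, 2.13% and 43.5% in the wild-type libraries. *fog-1*, *fog-3* and *spe-44* together took 2.23%, 64.1% and 49.8% in the *mec-8* libraries, against 43.03%, 93.9% and 45.9% in the wild-type libraries. The extremes were thus *mec-8* replicate 1, where the phosphatase genes dominated, and wild-type replicate 2, where *fog-1* alone took 50.4% of the reads. The reads on the phosphatase pair were 429.9, 1.27 and 2.31 times those on *fog-1* and *fog-3* in the *mec-8* libraries, and 6.40, 0.0304 and 13.96 times in the wild-type libraries. These groupings by role were read after the values had been seen and are given as a description.

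**Figure D3:**
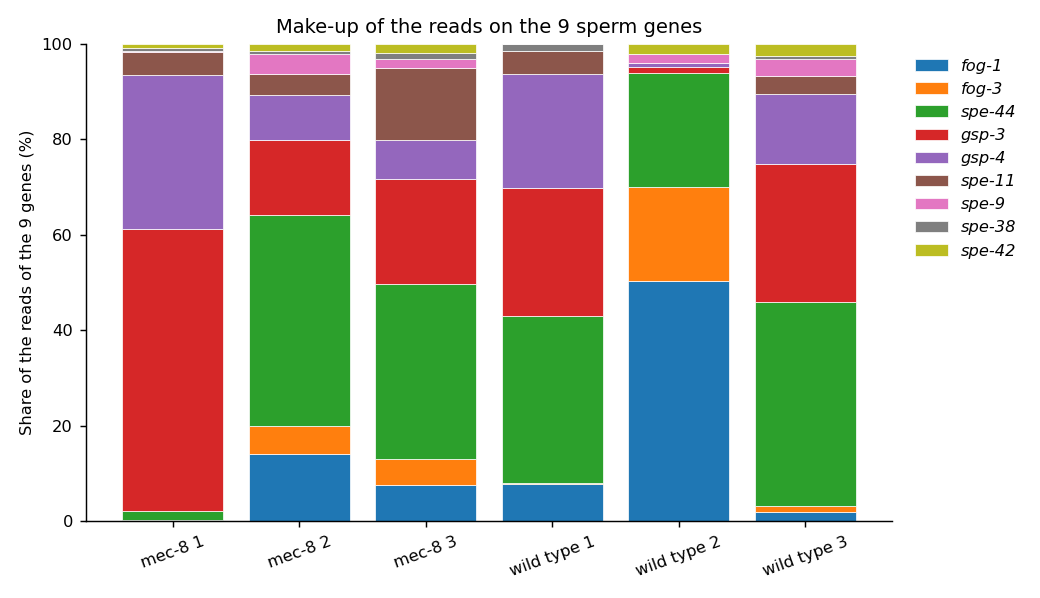
Share of the reads on the 9 genes taken by each gene, in percent, for the 3 *mec-8* libraries and then the 3 wild-type libraries. *gsp-3* and *gsp-4* take 91.2% in *mec-8* replicate 1 and 2.13% in wild-type replicate 2, where *fog-1* takes 50.4%.

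The likeness of genes was measured by the overlap of their library profiles. For each gene the CPM in each library was divided by its sum over the 6 libraries, and the smaller of the shares of a pair was added up over the libraries, so that 100% means the same profile. The closest pair was *gsp-3* and *gsp-4* at 98.1%, whose reads the counting may also have mixed. Next came *spe-11* and *spe-38* at 93.8%, *spe-9* and *spe-44* at 90.9%, and *fog-1* and *fog-3* at 85.4%. The least alike were *gsp-4* and *fog-3* at 20.3%. Between these, *spe-42* overlapped by 72.1% with *spe-38* and by 67.4% with *spe-44*. Among the fertilization genes, *spe-9* and *spe-38* overlapped by 40.1%. All points share the same 6 libraries, and the overlaps only describe them.

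**Figure D4:**
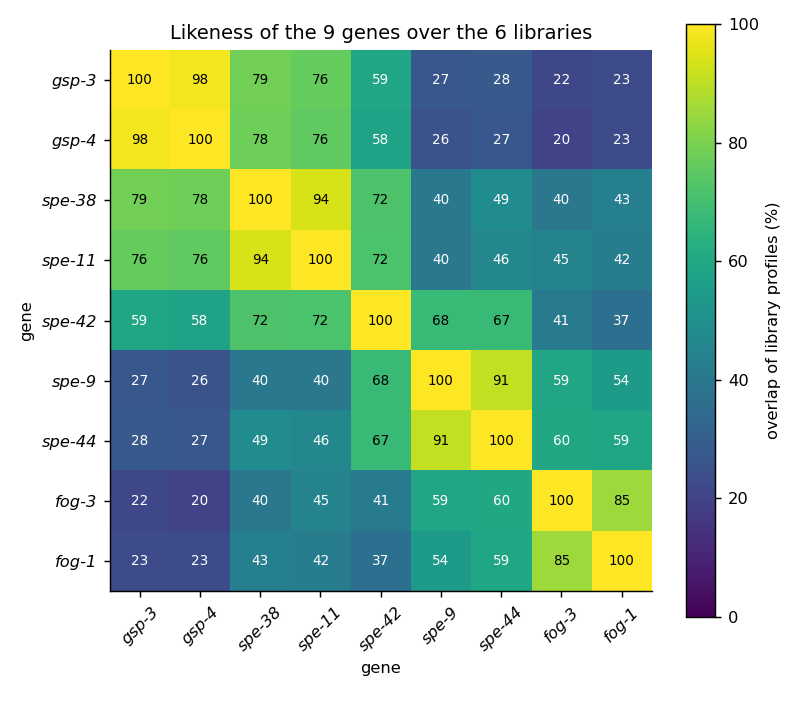
Overlap of library profiles in percent for each pair of the 9 genes, rounded to whole numbers, with both axes in the same order. *gsp-3*, *gsp-4*, *spe-38* and *spe-11* form a block of at least 75.5%, and *fog-3* and *fog-1* overlap by 85.4% with each other and by at most 23.1% with the phosphatase genes.

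The summed level of the 9 genes was set beside each of the 14778 other genes with at least 100 reads in all, whose median overlap with it was 41.9%. The summed profile had 59.9% in *mec-8* replicate 1 and 20.4% in wild-type replicate 3. In *mec-8* replicate 1 it was carried by *gsp-3* and *gsp-4*, with 91.2% of the reads on the 9 genes. In wild-type replicate 3 the pair took 43.5% of these reads and *spe-44* 42.8%. The 10 most alike genes were *ant-1.4*, which encodes a mitochondrial adenine nucleotide carrier (97.7%), M05D6.1 (97.6%), C32D5.4 (97.0%), ZK84.2 (97.0%), C32C4.3 (97.0%), T23F11.2 (96.9%), *pck-3*, named for phosphoenolpyruvate carboxykinase (96.8%), the pseudogene WBGene00020991 (96.4%), Y47G6A.26 (96.2%) and ZK353.4 (96.2%). None of these 10 was in a list of sperm genes used here. The lists are fixed sets of symbols that need not hold all sperm genes, so a role of these genes in sperm was not tested. For single members, chosen after the values were seen, the closest gene to *gsp-4* was *spch-1* of sperm chromatin (98.8%), and that to *gsp-3* was *gln-2*, a glutamine synthetase gene (98.7%), with the glycogen synthase kinase-like gene *gskl-2* next (98.3%).

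Other genes of the pathway were read as lists. None of the tested genes of these lists had an adjusted p under 0.05 or an unadjusted p under 0.05 in edgeR's test, so directions below are only signs of log2 fold changes. Upstream of *fog-1* and *fog-3*, 11 of 12 germline sex determination genes were tested, with 2 log2 fold changes above 0 and a median of -0.53. The 2 most abundant of them were *fem-1*, which promotes the male fate, with 186, 211 and 109 CPM in the *mec-8* libraries, against 212, 114 and 224 CPM in the wild-type libraries, and *fbf-1*, a PUF family RNA-binding protein gene, with 49.9, 288 and 106 CPM in *mec-8* against 192, 126 and 214 CPM in wild type. The whole list summed to 457 to 1138 CPM in *mec-8* and 562 to 978 CPM in wild type, a range much narrower than that of the 9 sperm genes.

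In the 5 downstream lists that follow, the summed level was highest in *mec-8* replicate 1 and next highest in wild-type replicate 3, as it was for *gsp-3*. Among sperm activation genes, 13 of 14 were tested and 11 log2 fold changes were above 0, with a median of 1.14. The most abundant, *spe-46*, had 177, 42.9 and 47.9 CPM in the *mec-8* libraries, against 4.92, 0.0 and 114 CPM in the wild-type libraries. The presenilin gene *spe-4* had 196, 40.1 and 26.4 CPM in the *mec-8* libraries, against 2.59, 0.0717 and 88.0 CPM in the wild-type libraries. Both were highest in *mec-8* replicate 1 and, among wild-type libraries, in replicate 3, and the genotypes overlapped.

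Of 6 further genes of sperm-egg fusion, 2 symbols were not matched and the other 4 were tested, with 4 log2 fold changes above 0 and a median of 0.85. *spe-49* had 43.6, 21.9 and 6.47 CPM in the *mec-8* libraries, against 0.0864, 0.0359 and 51.1 CPM in the wild-type libraries. *spe-51* was highest in *mec-8* replicate 1, with 58.0, 1.85 and 0.0440 CPM in the *mec-8* libraries, against 0.0, 0.0 and 1.96 CPM in the wild-type libraries. In the list for the membranous organelles and cell division of sperm, 8 of 8 genes were tested, 7 log2 fold changes were above 0 and the median was 0.97. *spe-18*, needed for the assembly of major sperm protein in spermatocytes, had 1839, 211 and 266 CPM in the *mec-8* libraries, against 8.25, 1.72 and 614 CPM in the wild-type libraries. The myosin gene *spe-15* had 616, 31.2 and 31.8 CPM in the *mec-8* libraries, against 3.32, 12.2 and 81.7 CPM in the wild-type libraries.

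Genes of sperm chromatin were tested in 6 of 6 cases, all 6 with a log2 fold change above 0 and a median of 1.93. *spch-1* had 2575, 129.5 and 102 CPM in the *mec-8* libraries, against 52.7, 0.0359 and 373 CPM in the wild-type libraries, where 0.0359 CPM is a single read. *spch-3* had 1314, 108 and 149 CPM in the *mec-8* libraries, against 46.6, 1.72 and 363 CPM in the wild-type libraries. In the small sperm protein families, 26 of 28 symbols had a single identifier and 25 were tested, all 25 above 0, with a median of 3.30. The most abundant were *ssq-4*, with 4195, 212 and 400.4 CPM in *mec-8* against 56.0, 0.0717 and 741 CPM in wild type, and *ssq-1*, with 4307, 131 and 159 CPM in *mec-8* against 60.1, 2.30 and 339 CPM in wild type. In these families the *mec-8* libraries lay all above the wild-type libraries for 2 of 25 genes, where 5.5% of all genes tested did so.

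The major sperm protein genes, which encode the cytoskeletal protein by which sperm crawl, summed to 81871, 2501 and 4008 CPM in the *mec-8* libraries, against 1507, 26.04 and 3444 CPM in the wild-type libraries. The most abundant were *msp-59*, with 8623, 316 and 655 CPM in *mec-8* against 115, 1.11 and 315 CPM in wild type, and *msp-40*, with 5872, 374 and 506 CPM in *mec-8* against 106, 0.143 and 524 CPM in wild type. The median log2 fold change over the 30 tested was 4.50, against 2.49 for *gsp-3*. The lowest and the highest library were the same for the msp genes, the small families, sperm chromatin and *gsp-3*, namely wild-type replicate 2 and *mec-8* replicate 1. The msp genes are near-identical copies, so their counts by gene are uncertain.

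**Figure D5:**
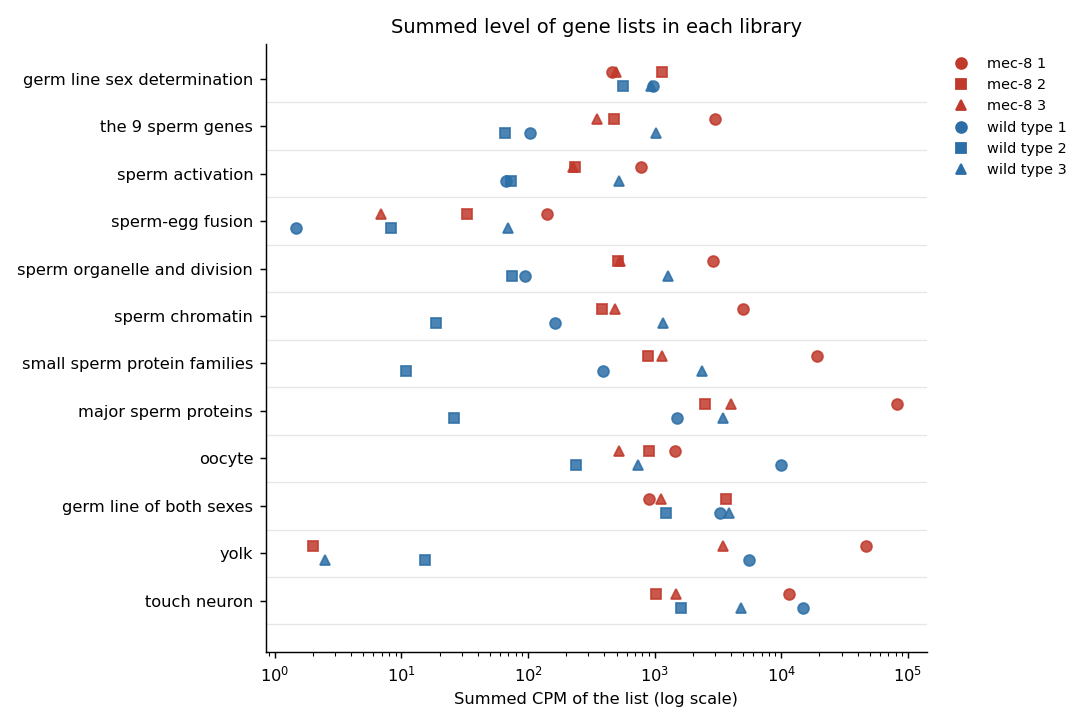
Summed CPM (log axis) of the 9 sperm genes and of other gene lists, with a point for each library (red *mec-8*, blue wild type, marker shape by replicate). *mec-8* replicate 1 is highest in all sperm lists but not in germline sex determination (457 CPM) or in the list for the germ line of both sexes (900 CPM), where it is lowest.

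Markers of other germline and somatic cells were read in the same libraries. The list for the germ line of both sexes, with *glh-1* as its most abundant gene, summed to 899.7, 3630 and 1117 CPM in the *mec-8* libraries, against 3310, 1220 and 3878 CPM in the wild-type libraries. *mec-8* replicate 1, the highest in *gsp-3*, was thus the lowest in this list. The oocyte list summed to 1440, 908 and 519 CPM in the *mec-8* libraries, against 9873, 237 and 738 CPM in the wild-type libraries, and it was highest in wild-type replicate 1. The 9 sperm genes summed to 104 CPM in that library. Among them *spe-9* and *spe-42* had 0 reads, while *gsp-3* had 645 and *spe-44* had 847. The 6 yolk protein genes summed to 46845, 2.02 and 3458 CPM in the *mec-8* libraries, against 5537, 15.5 and 2.48 CPM in the wild-type libraries. Yolk was therefore high with *gsp-3* in *mec-8* replicate 1 but near its lowest in wild-type replicate 3, which was second in *gsp-3*. The 4 somatic gonad genes summed to between 41.4 and 61.3 CPM in *mec-8* and between 14.7 and 70.8 CPM in wild type. Single genes of this list were less even than the sum. *fkh-6* had 6.77, 34.9 and 41.6 CPM in *mec-8* against 0.0, 12.5 and 49.8 CPM in wild type. *lag-2* and *lim-7* also had 0 reads in some libraries, while *ceh-18* lay between 10.5 and 29.6 CPM. The summed body wall muscle list was highest in the same 2 libraries as *gsp-3*, with 25206 CPM in *mec-8* replicate 1 and 19547 CPM in wild-type replicate 3, and lay between 1132 and 2347 CPM in the other 4. Most of both high sums was *unc-54* (24877 and 18419 CPM), and its other genes had another order. *myo-3* had 328 CPM in *mec-8* replicate 1, below 508 and 1122 CPM in wild-type replicates 2 and 3. *unc-120* was highest in wild-type replicate 2 (20.5 CPM), with 1.21 CPM in *mec-8* replicate 1 and 5.35 CPM in wild-type replicate 3. The intestinal list had 152.5, 158 and 1655 CPM in the *mec-8* libraries, against 132, 60.5 and 6.26 CPM in the wild-type libraries. Its genes *elt-2* and *ges-1* each lay higher in all *mec-8* than in all wild-type libraries (log2 fold changes of 3.08 and 3.05, unadjusted p of 0.021 and 0.025 and adjusted p of 1.0 in the edgeR quasi-likelihood test). Of all genes tested, 5.5% lay higher in this way and 2.87% were higher with an unadjusted p under 0.05. The other gene of the list, *mtl-2*, overlapped between the genotypes (unadjusted p of 0.068 in the same test). It made up 1576 of the 1655 CPM in *mec-8* replicate 3. The hypodermal list had 11.6, 147 and 40.0 CPM in *mec-8* against 206, 201 and 151 CPM in wild type. These sums lay lower in all *mec-8* libraries, but each of the 3 genes overlapped between the genotypes. Of all genes tested, 1.49% lay lower without overlap. *dpy-7* had 0.997, 90.4 and 0.0 CPM in *mec-8* against 0.0, 159 and 60.3 CPM in wild type. *clec-1* made up 191 of the 206 CPM in wild-type replicate 1. The part of these cells in the levels of the sperm genes was not tested.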

How the data were processed

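The authors sorted GFP-positive cells, made libraries with the NEBNext Single Cell/Low Input kit and aligned the read pairs to WBcel235 by STAR. They deposited HTSeq counts, raw reads per gene without normalization. Counting mode, strand and annotation release are not given in the sources used here. The lines that name no gene were left out of library totals, and reads on no gene were 0.385% to 3.57% and reads on more than 1 gene 2.62% to 11.1% of the unique reads. Of 46726 identifiers, 46364 were in the WBcel235 annotation (Ensembl), which gave symbols, coordinates and exon lengths. Depth was 15334872 to 33094142 reads on genes.

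Genotypes were compared with the quasi-likelihood test of edgeR 4.0.16 under R 4.3.3, using TMM, filterByExpr and Benjamini-Hochberg adjustment over all 14614 genes, at a threshold of 0.05. Each standard error was worked back from the F statistic as |log2 fold change| divided by its square root. Sums were compared by exact permutation in scipy 1.17.1. The study names biological triplicates. The fitting script was first tested on simulated data. Alternatives were DESeq2 1.42.0, other scalings and filters, limma 3.58.1 voom with sample quality weights, a replicate block and each library left out. The 9 genes and the lists were chosen with earlier results of these data known. Named list genes are the 2 with most reads in each sperm list and any gene of a sperm list with an unadjusted p under 0.05 (none had one), and the 10 genes most like the summed profile. No sequences are shown, since no sequence file was used here.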

Additional observations from a re-analysis of the deposited data

How the results depend on the processing

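The count of called sperm genes was 0 in all alternatives run, and at a filter of 10 reads in every library only 4 of the 9 genes were tested, while DESeq2 gave an adjusted p for 5 of them. Over all genes, edgeR called 0 (470 at an unadjusted p under 0.05) and DESeq2 called 51. The log2 fold changes changed sign for *spe-9* (2.06) and *spe-44* (0.10) in limma voom with sample quality weights, where *spe-11* was 5.45, *spe-42* 1.78 and the median of the 9 genes 2.06. Same-numbered libraries deviated together in 1 of 3 pairs only (correlations across genes of 0.0574, 0.471 and -0.167). The sample titles do not say whether same-numbered libraries were handled together, and 3 such correlations cannot settle it. With the replicate block *spe-9* (3.60) and *spe-44* (0.99) also changed sign, *gsp-3* was 4.81, *gsp-4* 4.32, *spe-11* 5.06, *spe-38* 3.40, *spe-42* 2.41 and *fog-3* 1.66, *fog-1* was 0.31, 0 genes were called and the unadjusted count was 240, while the paired difference of the summed log2 level was 2.05 (exact sign-flip permutation test, p = 0.5). With both replicate 1 libraries left out, an alternative chosen after seeing the data, *gsp-3* (-1.58), *gsp-4* (-1.72) and *spe-42* (-1.66) changed sign and the summed difference was 0.65. Leaving out single libraries gave log2 fold changes of -0.90 to 5.99 for *gsp-3*, -1.12 to 5.28 for *gsp-4*, 1.03 to 5.26 for *spe-11*, -1.36 to 4.04 for *spe-9*, 0.62 to 3.92 for *spe-38*, -0.89 to 4.65 for *spe-42*, -1.25 to 2.36 for *spe-44*, -0.26 to 0.88 for *fog-1* and 0.08 to 1.22 for *fog-3*, and a summed difference of 1.09 to 3.27. The cause of these changes was not tested. DESeq2 size factors and upper-quartile scaling shifted the median of all genes by -0.11 and -0.13 on the log2 scale, and no sign of the 9 genes changed under either. Values near 0 reads rest on few reads. The floor of 3 reads was a choice made for bounds, and no background rate was measured.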
